A study of Neurospora crassa with 12 samples.

Results

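The genes described here encode the 4 core proteins of the Neurospora crassa Polycomb complex that methylates histone H3 at lysine 27. They are set-7 (NCU07496), eed (NCU05300), suz12 (NCU05460) and npf (NCU06679), out of 9730 annotated genes in the data. They were chosen by name, not by any measured value. With each gene went every annotated transcript and every unannotated transcript that overlapped it or lay within 2000 bp on either strand, which gave 10 of the 21475 transcripts in all. Of these 10, 4 were the annotated transcripts and 6 were unannotated.

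RNA-seq was performed on mycelia of Δset-1 (Δkmt2, which lacks the H3K4 methyltransferase), Δdim-5 (Δkmt1, which lacks the H3K9 methyltransferase) and WT. The mutants are knockout-collection strains that had been crossed back to the WT background. Cultures of each strain were harvested after 24 h of constant darkness followed by 30 min of light (LP30), or after the 24 h of darkness alone (DD24), with 2 replicates for each of the 6 groups and 12 libraries in all. The file is a single transcript annotation that merges the assemblies of all 12 libraries with the existing annotation. It places every transcript and its exons on the genome but gives no expression level. From this annotation neither strain nor light can be compared for any gene and the depth of each library cannot be read, and an unlisted transcript may have been below what the assembly could detect.

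As background, Polycomb repressive complex PRC2 adds methyl groups to H3K27 and thereby marks a form of facultative heterochromatin, in which genes are kept silent. In Neurospora much of this mark lies towards the chromosome ends. SET-7 (also called KMT6) is the catalytic subunit. EED is a WD-repeat protein that, in mammals, binds the finished mark and stimulates the enzyme, and SUZ12 is the scaffold that holds the subunits together. NPF is the histone-binding subunit related to p55 of Drosophila, which is also a subunit of the chromatin assembly factor CAF-1. The study raises redistribution of H3K27 methylation as one possible source of expression changes in Δdim-5, and the question addressed here is which transcripts the libraries gave at the genes of the enzyme itself.

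The 4 genes lie on 4 chromosomes and fell into a pair with new isoforms and a pair without. Unannotated isoforms, meaning transcripts that share exon sequence with the gene on its own strand, were found for set-7 (1 isoform) and suz12 (2 isoforms). That is 2 of 4 genes, against 36.4% of all 9730. No isoform was listed for eed or npf. All 4 genes had exactly 1 annotated transcript, as did 90.8% of all genes. All 4 were also listed with the constant that the assembly program writes where the merged libraries held a transcript at the locus, as were 91.5% of all genes. No antisense transcript, which would share exon sequence with the gene on the opposite strand only, was found for any of the 4 genes, against 21.2% of all genes. Nor did an intergenic transcript lie within 2000 bp of any of them, against 29.1% of all genes. With 4 genes, a count of 0 has an exact 95% Clopper-Pearson interval that reaches 60.2%, which includes both of these shares. No test was run, since the genes were chosen by name and genes are not replicates. RefSeq gives a symbol for 2 of the 4, set-7 for NCU07496 and cac-3 for NCU06679, and the same start and end as the file for all 4.

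**Figure D1:**
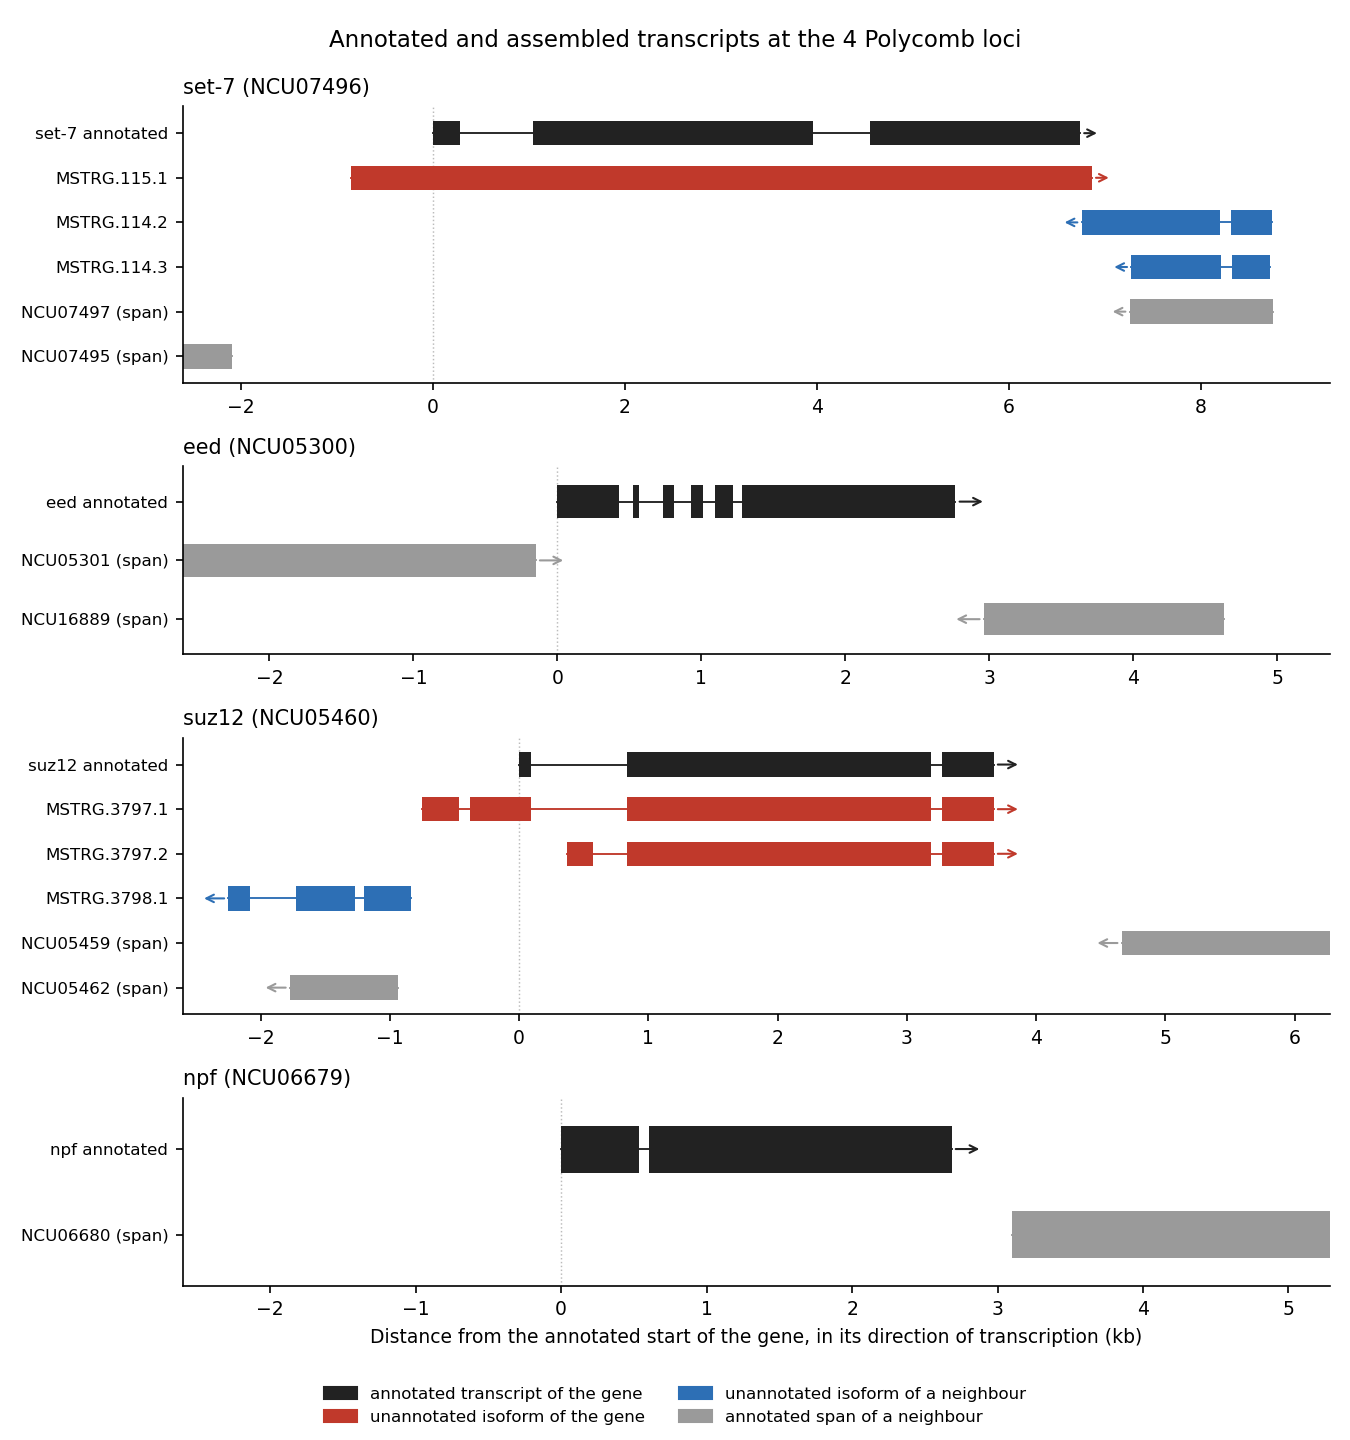
Transcripts at set-7, eed, suz12 and npf, drawn by distance from the annotated start of each gene in its direction of transcription (kb). Boxes are exons, thin lines introns, and arrows give the strand where the 3′ end of a transcript lies inside the window. The set-7 isoform fills both introns in 1 exon, the suz12 isoforms differ from the gene at their 5′ ends only, and no unannotated transcript appears beside eed or npf.

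The set-7 gene, which encodes the methyltransferase, was the longest of the 4. It lies on the minus strand of chromosome I at 408524 to 415263 (NC12). Its span of 6740 bp was longer than that of 98.7% of all genes, and its exonic length of 5387 nt exceeded that of 97.3%. The 3 exons measure 282, 2913 and 2192 nt in order of transcription. The introns between them measure 765 and 588 bp. Both are long for Neurospora, where the median of 17854 annotated introns was 76.0 bp and 1.97% reached 500 bp. The first was longer than 99.4% of annotated introns and the second longer than 98.8%. An intron of 500 bp or more occurred in 321 of 7983 genes with introns, and a pair of them in 1 transcript in 17 genes, or 0.213%. Such a pair is what set-7 has, so its place among the 17 was fixed by the definition.

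The set-7 isoform, MSTRG.115.1, was a single exon of 7713 nt at 408401 to 416113 on the same strand. It ran through both introns and passed the gene at each end, starting 850 bp upstream of it and stopping 123 bp beyond it. It shared 5387 bp with the annotated exons, that is all of them. Of its length, 1353 nt or 17.5% was annotated intron. A single-exon isoform that retains every intron of an annotated transcript was found at 4.28% of genes with introns, and one that also reaches both annotated ends at 2.99%. Among the 4 Polycomb genes set-7 alone had either, and both features describe its own isoform. Retention of at least 1 whole intron by any isoform was more common and occurred at 22.2% of all genes. Here too set-7 was the only one of the 4. By summed retained intron, MSTRG.115.1 ranked 3rd of 333 isoforms that kept all introns of 1 gene, whose median was 92.0 bp. By length it ranked 2nd of 379 single-exon isoforms. Beside both ranks stands the length of the gene itself, given above. MSTRG.115.1 has no intron whose splice sites would fix its strand, and the file gives no read counts from which the share of unspliced set-7 RNA could be computed.

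The suz12 gene encodes the scaffold subunit and lies on the minus strand of chromosome II at 1672115 to 1675786. It has 3 exons of 94, 2348 and 401 nt, 2843 nt in all, which was longer than 75.3% of genes. Its first intron measures 742 bp, longer than 99.2% of the 8673 annotated first introns, whose median was 83.0 bp. The first intron of set-7 also stood at 99.2%. The second intron of suz12 measures 87 bp, close to the median of all introns. Both suz12 isoforms kept the 2 downstream exons and the annotated 3′ end to the base. Of 4940 isoforms that overlap 1 gene, 40.2% ended at the annotated 3′ base, whatever exons they kept. They differed from the annotated transcript in where they began.

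The longer isoform, MSTRG.3797.1, began at 1676536, which is 750 bp upstream of the annotated start. It had 4 exons and 3509 nt. Its first exon of 288 nt lay wholly upstream of the gene and was joined through a new intron of 84 bp (1676165 to 1676248) to a second exon of 472 nt, which ended at the annotated end of exon 1. The long first intron of the gene was then removed at its annotated ends. An intron wholly upstream of the annotated start was found at 217 of all genes, or 2.23%, and among the 4 only at suz12.

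The shorter isoform, MSTRG.3797.2, began 369 bp downstream of the annotated start, inside that first intron. Its first exon of 202 nt (1675216 to 1675417) lay wholly within the 742 bp intron and was joined to exon 2 at the annotated splice site by an intron of 265 bp. The transcript was 2951 nt long, so it lacked the annotated first exon of 94 nt and carried other sequence in its place. A first exon of this kind was found at 23 of 7983 genes with introns, or 0.288%. Only 2 of these genes also had an upstream intron, suz12 being 1 of them. This combination is the one seen at suz12, so its place among the 2 was fixed by the definition. The assembled and annotated starts of suz12 thus lay at 3 positions over 1119 bp, while all 3 transcripts shared 1 end. At set-7 the 2 starts lay 850 bp apart and the 2 ends 123 bp apart. These are outer ends of merged or annotated transcripts, not mapped start sites. How many libraries held each assembled end cannot be read. The introns in the isoforms of both genes all belonged to suz12, and comprised its 2 annotated introns, of which the 87 bp one was present in both isoforms, and the 2 new introns of 84 and 265 bp. Whether the new first exons change the protein was not tested, since no reading frame or sequence was used here.

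**Figure D2:**
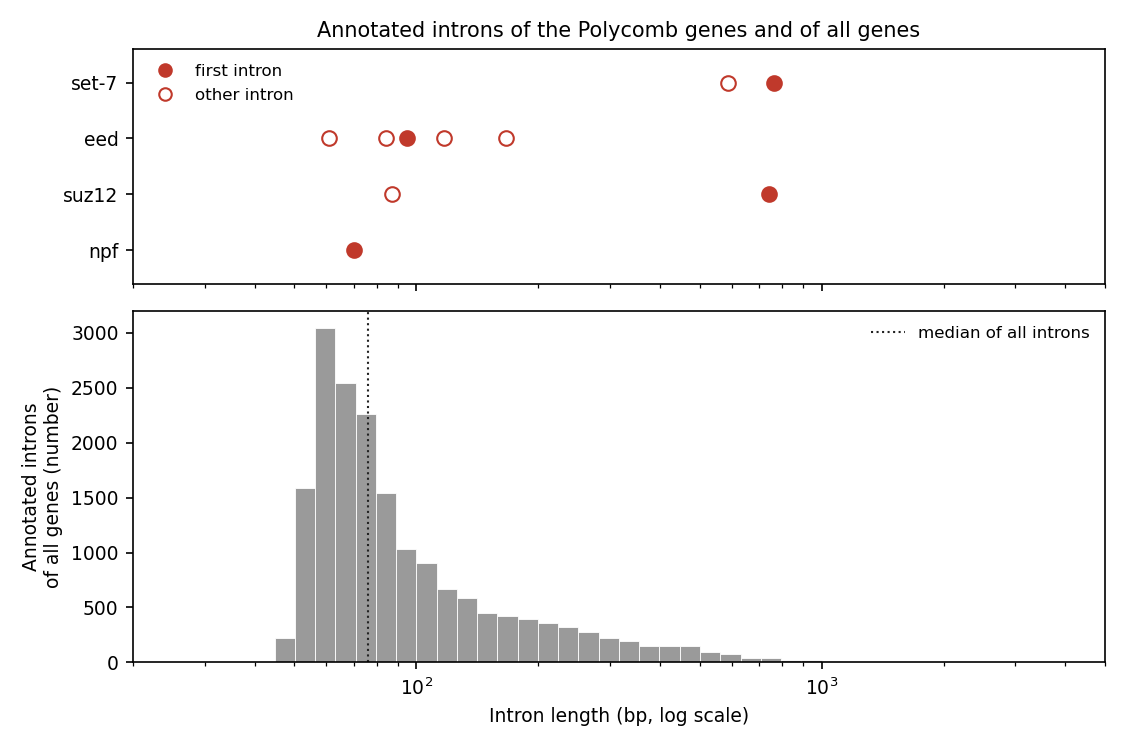
Length of every annotated intron of set-7, eed, suz12 and npf (upper panel, filled points for first introns and open points for the others) above the lengths of all 17854 annotated introns (lower panel, number per bin), on a shared log scale in bp. The introns of 765 and 588 bp in set-7 and of 742 bp in suz12 lie in the far tail, and the other 7 lie between 61 and 166 bp.

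An isoform passed the annotated 5′ end at set-7 and suz12, 2 of 4 genes, against 14.3% of all genes. Among the 3546 genes with any isoform this share was 39.3%. The extensions of 850 and 750 bp were both above the median of 370.5 bp for the 1600 isoforms that pass the 5′ end of a single gene, but inside its upper quartile bound of 973 bp. They were longer than 71.8% and 68.4% of these extensions. The 3′ end was passed at set-7 only, 1 of 4 genes, against 12.9% of all genes. That extension of 123 bp was below the median of 286.5 bp over 1242 isoforms.

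**Figure D3:**
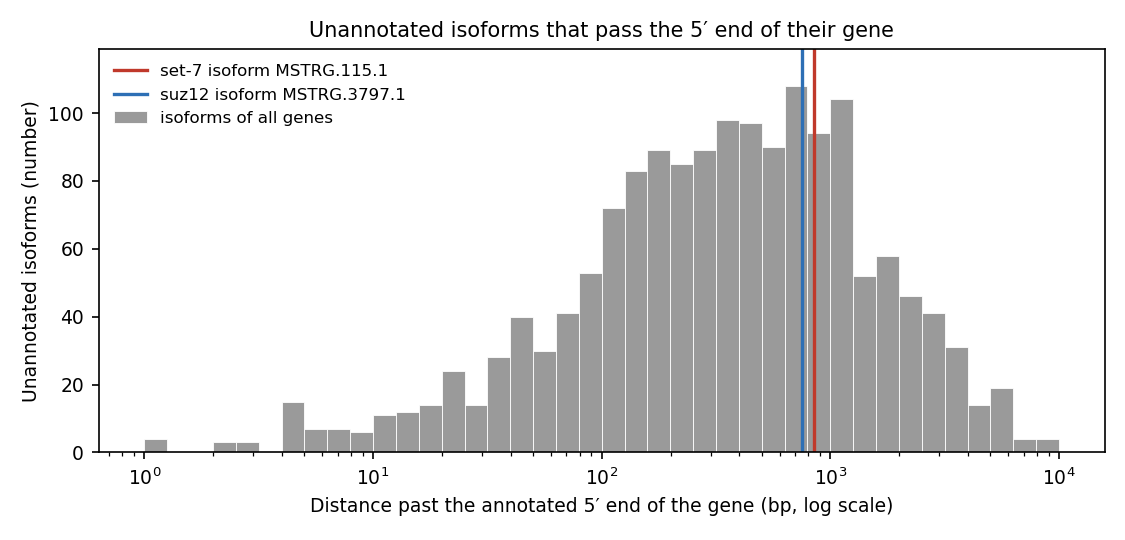
Distance (bp, log scale) by which unannotated isoforms of all genes passed the annotated 5′ end of their gene, as number of isoforms per bin. Vertical lines mark MSTRG.115.1 of set-7 at 850 bp and MSTRG.3797.1 of suz12 at 750 bp, both inside the bulk of the 1600 isoforms.

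The eed gene, for the subunit that reads the mark in mammals, lies on the plus strand of chromosome IV at 5413342 to 5416107. It was the most divided of the 4, with 6 exons, a number larger than that of 94.7% of genes. After a first exon of 432 nt come exons of 43, 77, 81 and 126 nt and a last exon of 1484 nt, 2243 nt in all. Its 5 introns measure 95, 166, 117, 84 and 61 bp. The first of them was longer than 58.4% of annotated first introns. Introns made up 18.9% of the span of eed, near the 20.1% of set-7 and the 22.6% of suz12, but spread over 5 introns rather than concentrated in 1 or 2. The gene is closely packed. NCU05301 on the same strand ends 149 bp upstream, and 7.65% of 4313 same-strand gaps are shorter than this. The convergent gene NCU16889 ends 196 bp downstream, a less unusual distance, since 23.6% of 1714 convergent gaps are shorter. No unannotated transcript overlapped eed or lay within 2000 bp.

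The npf gene, for the histone-binding subunit, lies on the plus strand of chromosome V at 4249520 to 4252204. Its 2 exons of 535 and 2080 nt are separated by 1 intron of 70 bp, which made up 2.61% of the span. NCU06680 on the same strand begins 417 bp downstream. Upstream the annotation is empty for 14547 bp as far as NCU06678, which is transcribed away from npf. That gap was longer than 98.0% of the 2566 gaps between divergent neighbours, whose median was 817 bp. It held 0 transcripts of any class on either strand, whereas 73 of the 114 gaps of 10000 to 20000 bp between genes, or 64.0%, held at least 1 intergenic transcript. Neither npf nor eed had an unannotated transcript of any kind within 2000 bp, while set-7 and suz12 did, so 2 of 4 genes had one (exact 95% interval 6.76% to 93.2%), against 87.7% of all genes.

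The remaining 3 unannotated transcripts belonged to neighbours of set-7 and suz12. Downstream of set-7 lies the convergent gene NCU07497 (406510 to 408008, plus strand), and as annotated the 3′ ends of both genes are 515 bp apart. The NCU07497 isoform MSTRG.114.2 (1874 nt, 2 exons) passed its gene by 500 bp at the 3′ end and stopped 15 bp short of annotated set-7. It overlapped the 3′ end of the set-7 isoform MSTRG.115.1 by 108 bp (408401 to 408508) on the opposite strand. This was the only overlap of a Polycomb transcript with a transcript on the other strand, and it exists between 2 unannotated transcripts only. Such an overlap, between convergent neighbours that are apart as annotated, was found in 8.28% of 1714 adjacent pairs, and in 1 of the 3 convergent pairs that involve a Polycomb gene. The other isoform of NCU07497, MSTRG.114.3 (1319 nt), stayed inside its gene and differed from it by 13 bp at the 5′ splice site, while MSTRG.114.2 differed by 5 bp at the 3′ splice site.

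Upstream of suz12 lies the divergent gene NCU05462 (1676725 to 1677559, plus strand), with 938 bp between the annotated starts. Its isoform MSTRG.3798.1 (985 nt, 3 exons) began 101 bp upstream of it, at 1676624, and passed its 3′ end by 476 bp. Against MSTRG.3797.1 of suz12 this left 87 bp between the assembled starts. At set-7 the divergent neighbour NCU07495 lies 2088 bp away as annotated, and 1238 bp from the start of MSTRG.115.1. No divergent pair of a Polycomb gene came to overlap, 0 of 3, against 3.94% of 2566 adjacent divergent pairs. All 8 nearest neighbours of the 4 genes were themselves listed with the constant of the assembly program, those of eed and npf included.

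**Figure D4:**
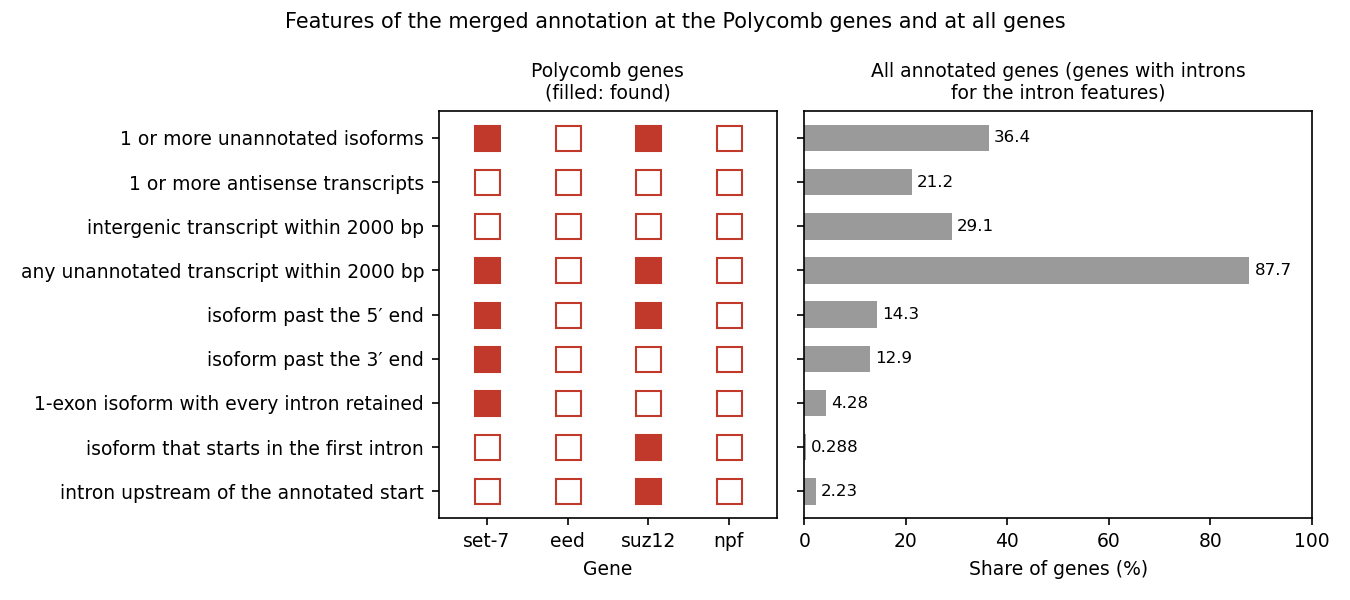
Features found at set-7, eed, suz12 and npf (left, filled squares) beside the share of all annotated genes with the same feature (right, %; genes with introns for the 1-exon isoform with every intron retained and for the isoform that starts in the first intron). Empty columns mark eed and npf, set-7 fills 5 of the 9 rows and suz12 fills 5.

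The 4 genes were set beside 12 other chromatin genes, for histone methyltransferases, the H3K9 methylation pathway and CAF-1 among others, without a test. Among the 12, set-1 and dim-5 were each deleted in 1 of the mutant strains, whose libraries are pooled in the annotation. Which strains gave the transcripts at these 2 loci cannot be read, and both are included in the counts below. Isoforms were found for 2 of the 4 Polycomb genes, against 7 of the 12 (set-1, set-3, NCU06266, dim-5, dim-7, dim-9 and cac-1). An antisense transcript was found for 0 of the 4, against 3 of the 12 (set-1, dim-8 and cac-1), and an intergenic transcript within 2000 bp for 0 of the 4, against 5 of the 12. Some unannotated transcript lay within that distance of 2 of the 4, against 12 of the 12. The npf gene had neither an isoform nor an antisense transcript, whereas cac-1, which encodes another CAF-1 subunit, had 1 of each. An isoform retained at least 1 whole intron at 1 of the 4 (set-7), against 5 of the 12 (set-1, set-3, NCU06266, dim-7 and dim-9). The 3′ end was passed at 1 of the 4, set-7 by 123 bp, against 2 of the 12, dim-5 by 4267 bp and dim-9 by 296 bp. The 5′ end was passed at 2 of the 4, against 1 of the 12, dim-9 by 19 bp. A further 3 features were a single-exon isoform with every intron retained, a first exon inside the first intron and an upstream intron. Each was found at 1 of the 4, against 0 of the 12, and their shares of all genes are given above. These features describe the isoforms seen at set-7 and suz12, so finding each among the 4 was fixed by its definition. The longest intron measured 765 bp in set-7, 166 bp in eed, 742 bp in suz12 and 70 bp in npf, against a median of 79.0 bp in the 12 genes, from 67 bp in hpo to 510 bp in dim-9.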

How the data were processed

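Total RNA was rRNA-depleted and read as 100 bp pairs from a TrueSeq (version 2) library. The study states that strand was preserved, although the kit name does not show it, and strands were taken from the file. The authors mapped reads to NC12 with HISAT2 (version 2.1.0), assembled each sample with StringTie (version 1.3.3b) and merged the assemblies with the existing annotation. The command in the file header sets no filter, so the default limits of the merge step on length and level apply. In the score column, the authors' deposited file holds a constant, or a dot for genes carried over from the reference, and no expression level. Strain, light and replicate effects cannot be computed from this pooled file.

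Positions count from 1. An unannotated transcript was called an isoform where any exon base (minimum 1 bp) coincided with an annotated exon on its strand, antisense where it did so on the opposite strand only, and intergenic where its span touched no annotated span. These classes are modelled on the class codes of the study and are not the same. Of 10690 unannotated transcripts, 5406 were isoforms, 2440 antisense and 2834 intergenic. RefSeq (NC12) listed 9729 of the 9730 genes, all with the same ends. RefSeq gives no symbol for NCU05300 and NCU05460, and eed, suz12 and npf are the usual names of these genes. Genome, promoter and protein sequences were not used here. Genes named were the 4 genes with their transcripts, their nearest annotated neighbours and a list of 12 chromatin genes. The genes and lists were chosen with earlier results of these data known. The features of a single exon with every intron, a start in the first intron and an upstream intron describe isoforms found at these genes. The pair of introns of 500 bp or more likewise describes set-7. The classification recovered 400 of 400 planted transcripts in simulated data. Clopper-Pearson intervals cover counting error only. Alternatives concerned transcript length, exon number, distance, overlap, splice-site tolerance and gene ends. Python 3.11.15, numpy 2.4.6, scipy 1.17.1 and matplotlib 3.10.9 were used.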

Additional observations from a re-analysis of the deposited data

How the results depend on the processing

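Of 39 alternatives, 30 left the value of a count or length at the 4 genes as reported and 5 moved a count by no more than 1.5 times. With transcripts of at least 2 exons only, an alternative chosen after seeing the data, 1 of the 4 genes (suz12) kept an isoform, because MSTRG.115.1 of set-7 has 1 exon. With a distance of 5000 bp in place of 2000 bp, 12 unannotated transcripts lay at or near the 4 genes, of which 2 were intergenic, near 2 of the genes. No antisense transcript of the 4 genes appeared under any overlap, length or exon rule tried, nor when annotated neighbours were counted. No paired analysis was possible because the file pools all replicates and groups. For the same reason no replicate could be left out. Depth limits what could be assembled at each gene and is unknown from the file.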

Other observations

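Between 2000 and 5000 bp from the 4 genes lay 6 further unannotated transcripts, and these included the nearest ones to eed and npf. Nearest to eed was MSTRG.8130.1 (2708 nt, 1 exon, plus strand), which lay 4050 bp away and was antisense to NCU05298. Nearest to npf was the intergenic MSTRG.9749.1 (236 nt), 3512 bp past the 3′ end of npf and beyond NCU06680. It began at 4255717, on the same strand as NCU06680, which ends at 4255714. MSTRG.9750.1, an isoform of NCU06681, followed at 3665 bp from npf. Beside suz12 the intergenic MSTRG.3800.1 (326 nt) lay 3502 bp away. Beside set-7 lay MSTRG.116.2, an isoform of NCU07495, at 2104 bp, just outside the distance used, and MSTRG.113.1 (204 nt), antisense to NCU07498, at 2777 bp.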
